A study of Homo sapiens with 4 samples.

Results

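Noncoding host genes carry small nucleolar RNAs (snoRNAs) in their introns, and the 10 described here were SNHG1, SNHG5, SNHG6, SNHG7, SNHG8, SNHG12, SNHG15, SNHG16, GAS5 and ZFAS1. They were taken by gene symbol from 57820 gene models, each name matched a single model, and all 10 had enough reads to be among the 15288 genes tested. RNA-seq was done on G401, a cell line from a kidney rhabdoid tumor, a childhood cancer driven by loss of SMARCB1. SMARCB1 had been considered a core subunit of the SWI/SNF chromatin remodeling complexes. BRD9 KO cells were compared with LacZ control cells, named for a bacterial gene that human cells do not have. In BRD9 KO cells the study knocked out, by CRISPR-Cas9, the bromodomain protein BRD9 of a SWI/SNF subcomplex. The paper reports that this subcomplex lacks SMARCB1. Each condition had 2 libraries (n = 2), called biological replicates in the study's methods, and both were grown in DMEM with serum. The comparison asks which transcripts change when BRD9 is lost. Whether the edited cells of these libraries were a pool or a clone is not stated. The paper reports that BRD9 deletion impaired growth of G401 and that no BRD9-deficient clones could be recovered from it. How long after editing RNA was taken is not given in the sources used here.

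When a host transcript is spliced, its introns are trimmed to snoRNAs, which guide chemical modification of ribosomal and spliceosomal RNA. C/D box snoRNAs direct 2′-O-methylation and H/ACA box snoRNAs direct pseudouridylation, while the spliced exons of most hosts encode no long protein and are destroyed by nonsense-mediated decay when ribosomes translate them. Many hosts begin with a 5′ terminal oligopyrimidine (TOP) tract, the start that also marks mRNAs of ribosomal proteins and ties their translation to growth signals. The level of a spliced host RNA therefore follows both its synthesis and its decay, and it is not a measure of the snoRNA made from the intron.

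In BRD9 KO cells 5 of the 10 host RNAs rose and none passed the test downward (0 also at an unadjusted p under 0.05 in edgeR, with 0 called lower by DESeq2 or by limma on TPM, where 1, SNHG6, was lower at an unadjusted p under 0.05). SNHG12 rose most, 1.52-fold, followed by SNHG8 at 1.29-fold, SNHG15 at 1.26-fold, SNHG16 at 1.19-fold and SNHG1 at 1.08-fold. GAS5, SNHG7, SNHG5, ZFAS1 and SNHG6 lay between -0.04 and 0.04 on the log2 scale. These counts stand against a background in which 20.5% of all genes tested were called higher and 18.1% lower in BRD9 KO cells by the same test, edgeR's quasi-likelihood test at an adjusted p under 0.05. The median log2 fold change of the 10 was 0.07, beside -0.01 over all genes tested. Under DESeq2 SNHG12, SNHG8 and SNHG16 were called higher, 3 of the 10, where 15.5% of genes were. Under limma on log2(TPM + 1) SNHG16 and SNHG8 were, 2 of the 10, where 8.77% of genes were. Beside the 0 hosts called lower, DESeq2 called 1437 of 13806 genes lower and limma on log2(TPM + 1) 1103 of 15288.

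The label was checked first on the edited gene. BRD9 had 29.4 and 26.8 CPM (reads of the gene scaled to library size with TMM factors) in BRD9 KO cells, against 48.2 and 53.8 CPM in LacZ control cells. Its log2 fold change was -0.86 ± 0.07 (SE; edgeR adjusted p = 2.84e-09) and part of the transcript remained in the reads. Total counts per library ran from 15053247 to 19559289.8, at which 3 reads correspond to 0.154 to 0.199 CPM. SMARCB1 had 0 counts in all 4 libraries, and VIM, a mesenchymal marker, was abundant. Of 11 markers of blood, endothelium, epithelium, liver and heart, 3 were at 0 in every library, and their summed level was 3.39 and 5 TPM in BRD9 KO libraries and 6.01 and 7.65 TPM in LacZ control libraries. The highest of them was the troponin gene TNNT2, at 1.74 and 3.46 TPM in BRD9 KO and 4.87 and 6.28 TPM in LacZ control cells. The part of this difference in the results was not tested. In bulk RNA a change in the share of cells and a change in RNA per cell cannot be told apart.

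The first bases at the annotated start of the host RNAs are shown because a TOP start is what several of these genes share. RefSeq's promoter table (GRCh38.p14) held 8 of the 10, all but SNHG6 and SNHG15. Each line gives 10 bases before the annotated start and 50 from it, 5′ to 3′, and capitals mark a TOP start, here a C followed by at least 4 pyrimidines (C or T) within 5 bases of the annotated start on the transcribed strand.
SNHG12 (GRCh38.p14, chr1:28581824-28581883, minus strand): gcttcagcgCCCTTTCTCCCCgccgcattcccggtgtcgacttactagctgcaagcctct
SNHG8 (GRCh38.p14, chr4:118278752-118278811, plus strand): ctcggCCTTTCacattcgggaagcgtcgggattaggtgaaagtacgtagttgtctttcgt
SNHG16 (GRCh38.p14, chr17:76557754-76557813, plus strand): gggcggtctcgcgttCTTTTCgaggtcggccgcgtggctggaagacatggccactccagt
SNHG5 (GRCh38.p14, chr6:85678684-85678743, minus strand): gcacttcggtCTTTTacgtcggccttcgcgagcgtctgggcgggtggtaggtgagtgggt
ZFAS1 (GRCh38.p14, chr20:49278632-49278691, plus strand): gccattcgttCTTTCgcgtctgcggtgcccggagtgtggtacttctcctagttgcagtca
SNHG7 (GRCh38.p14, chr9:136728135-136728194, minus strand): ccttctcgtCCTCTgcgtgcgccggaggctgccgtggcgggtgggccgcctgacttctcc
SNHG1 (GRCh38.p14, chr11:62855836-62855895, minus strand): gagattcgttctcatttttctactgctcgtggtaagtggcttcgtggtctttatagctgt
GAS5 (GRCh38.p14, chr1:173868996-173869055, minus strand): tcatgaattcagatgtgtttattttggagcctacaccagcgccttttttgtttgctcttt
A TOP start was found in 6 of these 8 promoters, beside 21.1% of 35116 promoters in the table and 15 of the 20 entries for the protein-coding TOP mRNAs listed further on. SNHG12 had the longest tract, 12 pyrimidines in a row. In SNHG1 the first pyrimidines were interrupted by an A. In GAS5 a run of 8 pyrimidines began at base 32 from the annotated start of this entry, outside the window searched. The rule reads the annotated start only and missed some of the 20 entries for known TOP mRNAs. A miss therefore does not show that SNHG1 or GAS5 RNA lacks a TOP start. Of the 6 hosts where the rule found a TOP start 3 were called higher in BRD9 KO cells, and of the 2 where it found none SNHG1 was. Among all tested genes with a TOP start in this table, 460 of 2182 were higher and 466 lower, with a median log2 fold change of -0.01.

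SNHG12, on chr1:28905050-28909495 of GRCh37, minus strand, hosts both H/ACA and C/D box snoRNAs. It had 12.8 and 11.02 CPM in BRD9 KO cells, against 8.03 and 7.68 CPM in LacZ control cells. Both knockout libraries lay above both controls. The log2 fold change was 0.61 ± 0.12 (SE; 95% confidence interval 0.36 to 0.86; edgeR adjusted p = 0.000425). It rested on the fewest reads of the family, 249 and 180 estimated counts in BRD9 KO and 121 and 128 in LacZ control. On the TPM scale, which divides by transcript length, its difference was 0.45 on the log2 scale and was not called (limma adjusted p = 0.131).

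SNHG8, on chr4:119199858-119200982, plus strand, is the host of an H/ACA snoRNA in a short gene of 1125 bases. Its level was 28.9 and 28.0 CPM in BRD9 KO cells, against 21.8 and 22.4 CPM in LacZ control cells, a log2 fold change of 0.36 ± 0.07 (SE; 95% confidence interval 0.22 to 0.51; edgeR adjusted p = 0.000357). The groups did not overlap. SNHG16, on chr17:74553848-74561430, plus strand, hosts SNORD1 family snoRNAs of the C/D type and was the most read host RNA. Its level reached 181 and 180.1 CPM in the BRD9 KO libraries, against 149 and 154 CPM in LacZ control cells, a log2 fold change of 0.26 ± 0.03 (SE; 95% confidence interval 0.20 to 0.31; edgeR adjusted p = 3.7e-07). SNHG8 and SNHG16 passed the test under each of the 13 alternative settings tried.

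SNHG15, on chr7:45022618-45026560, minus strand, is another H/ACA host, described elsewhere as a short-lived RNA. It had 13.8 and 14.3 CPM in BRD9 KO cells, against 11.6 and 10.7 CPM in LacZ control cells, without overlap. The log2 fold change of 0.33 ± 0.10 (SE; 95% confidence interval 0.12 to 0.54; edgeR adjusted p = 0.014) was not called without BRD9 KO replicate 2 (adjusted p = 0.066) or without LacZ control replicate 2 (adjusted p = 0.122), and DESeq2 did not call it (adjusted p = 0.105). SNHG1, on chr11:62619458-62623386, minus strand, carries a series of C/D snoRNAs in its introns. It had 70.5 and 68.4 CPM in BRD9 KO cells, against 64.8 and 64.0 CPM in LacZ control cells, a log2 fold change of 0.11 ± 0.04 (SE; 95% confidence interval 0.03 to 0.20; edgeR adjusted p = 0.0352). That small rise was not called without BRD9 KO replicate 1 (adjusted p = 0.203), LacZ control replicate 1 (0.0927) or LacZ control replicate 2 (0.166), nor by DESeq2 (0.18). Without LacZ control replicate 2, 3 of the 10 host RNAs were called higher, where 14.9% of genes were, and the same 3, SNHG12, SNHG8 and SNHG16, remained at an edgeR adjusted p under 0.01, where 15.1% of genes did.

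**Figure D1:**
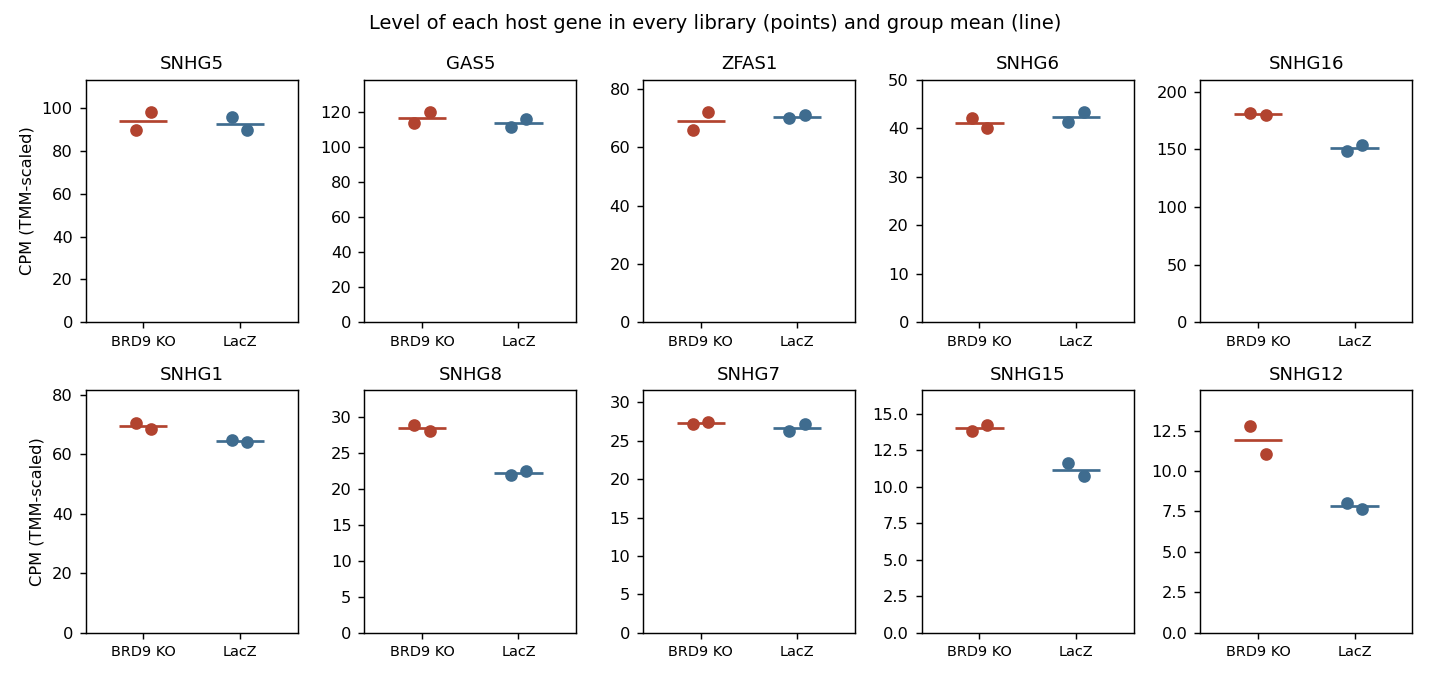
TMM-scaled CPM (y axis, from 0) of each host gene in the 2 BRD9 KO and 2 LacZ control libraries (points), with the group mean as a line. SNHG12, SNHG8, SNHG15, SNHG16 and SNHG1 had both knockout points above both control points, as did SNHG7 by a narrow margin, while the groups overlapped for SNHG5, GAS5, ZFAS1 and SNHG6.

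The other 5 hosts did not pass. GAS5, a growth-arrest gene on chr1:173833037-173838020 (minus strand) whose introns hold many C/D snoRNAs, had 113 and 119.9 CPM in BRD9 KO cells, against 111 and 116 CPM in LacZ control cells. Its log2 fold change was 0.04, with a 95% confidence interval of -0.04 to 0.11 (edgeR adjusted p = 0.467). SNHG5, the host of the SNORD50 snoRNAs on chr6:86370710-86388466 (minus strand), had 89.9 and 98.1 CPM in BRD9 KO cells, against 95.7 and 89.8 CPM in LacZ control cells. Its 95% confidence interval ran from -0.08 to 0.11 on the log2 scale (edgeR adjusted p = 0.798). ZFAS1, on chr20:47894715-47907397 (plus strand), had 66.0 and 72.1 CPM in BRD9 KO cells, against 70.1 and 71.0 CPM in LacZ control cells. SNHG6, a C/D host on chr8:67834053-67838633 (minus strand), had 42.3 and 40.0 CPM in BRD9 KO cells, against 41.3 and 43.4 CPM in LacZ control cells. In both ZFAS1 and SNHG6 the knockout and control libraries overlapped (edgeR adjusted p = 0.54 and 0.619 in that order).

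SNHG7, an H/ACA host on chr9:139615818-139622636 (minus strand), had 27.2 and 27.4 CPM in BRD9 KO cells, against 26.2 and 27.1 CPM in LacZ control cells, and its knockout libraries lay just above the controls. In all, 6 host RNAs had both knockout libraries above both controls, as did 34.1% of all genes tested, and none had both below. Groups did not overlap, in either direction, for 6 of the 10 hosts and for 68.6% of all genes tested. Over the 5 hosts not called, the 95% confidence intervals reached from -0.15 to 0.17 on the log2 scale, which leaves the rise of SNHG12 (0.61) outside each of them and that of SNHG1 (0.11) inside the interval of SNHG7. Of these 5 small values, 4 changed sign in at least 1 alternative setting. Summed over the 10 hosts, the level was 646 and 659 CPM in BRD9 KO libraries and 599.6 and 606 CPM in LacZ control libraries, a difference of means of 49.98 CPM. SNHG16 alone made up 29.5 CPM of it, or 59.0%.

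**Figure D2:**
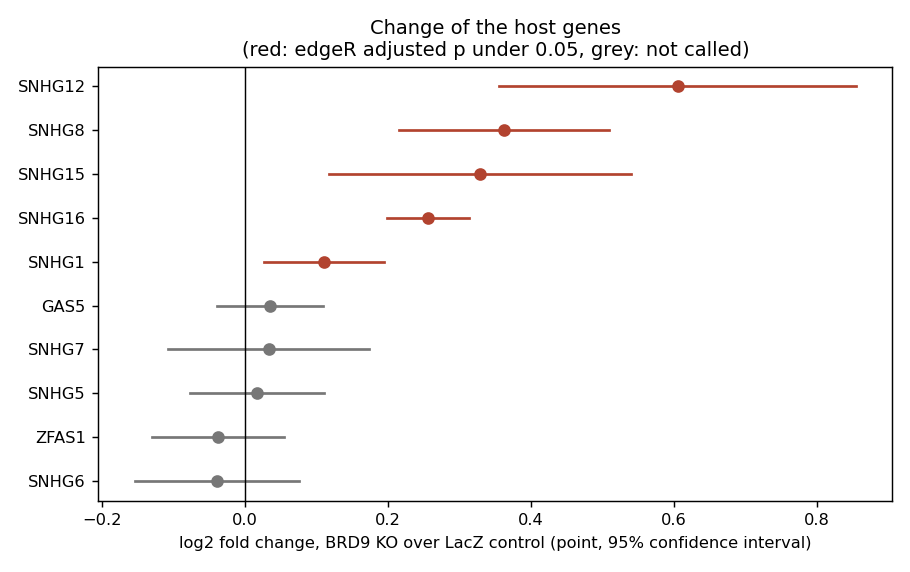
Log2 fold change of each host gene, BRD9 KO over LacZ control (x axis), as a point with its 95% confidence interval from edgeR. The 5 genes called higher are in red, led by SNHG12 at 0.61, and the intervals of the 5 others (grey) include 0.

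**Figure D3:**
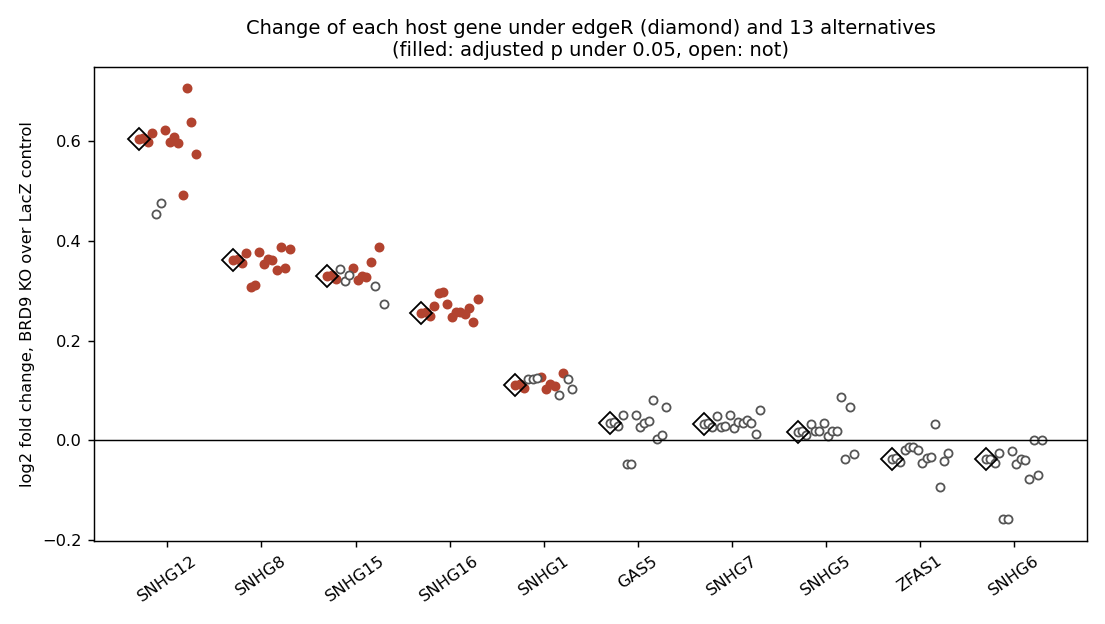
Log2 fold change (y axis) of each host gene in the edgeR test (diamond) and in 13 alternative settings (points), filled where the adjusted p was under 0.05. SNHG8 and SNHG16 were called in each setting, SNHG12 in all but the TPM fits, and SNHG15 and SNHG1 lost the call in several.

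Levels between genes were compared in TPM, which accounts for transcript length. SNHG5 was highest, with 375 to 409 TPM over the 4 libraries, then GAS5 (289 to 347 TPM) and ZFAS1 (194 to 209 TPM). SNHG6 (152 to 181 TPM) and SNHG16 (140 to 177 TPM) overlapped, as did SNHG1 (109 to 123 TPM) and SNHG8 (91.7 to 121 TPM). SNHG7 followed with 60.4 to 64.4 TPM, and SNHG15 (17.4 to 25.6 TPM) and SNHG12 (14.0 to 25.3 TPM) overlapped at the low end. By the deposited TPM, the 3 highest hosts were among those not called, and the 2 lowest among those called. The first part does not hold for RSEM's other estimate, the posterior mean TPM. There SNHG1, which was called, had 286 to 315 TPM over the 4 libraries, above ZFAS1 with 177 to 192 TPM. For SNHG1 the deposited TPM lay below RSEM's own credibility interval in all 4 libraries, for example 123 TPM against an interval of 130 to 506 TPM in BRD9 KO replicate 1. The files list 34 transcripts of SNHG1, so its place in this order is uncertain, while RSEM's posterior SD for its read count was 0. GAS5 lay below its interval in 3 libraries, SNHG12 in 1 (LacZ control replicate 1, 14.0 TPM against 14.9 to 31.1 TPM), and ZFAS1 outside its narrow interval in all 4. Over the 10 hosts the posterior SD of the count was at most 0.906% of the count, reached in SNHG7. That SD covers RSEM's own model, not reads in stretches shared with a gene on the other strand.

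The mix of transcripts within a gene can move without its count, and the length column of RSEM, which weights each transcript's length by its abundance, was read for this. No host passed the limma test on log2 length, and neither did any of the 12632 genes tested (0% called; 1043 genes, and 0 of the 10 hosts, had an unadjusted p under 0.05). SNHG6 had a weighted length of 536 and 485 bases in BRD9 KO cells, against 477 and 468 bases in LacZ control cells, the only host whose groups did not overlap (limma adjusted p = 0.761). Its TPM was 152 and 162 in BRD9 KO cells, against 169 and 181 in LacZ control cells, a difference of -0.16 on the log2 scale that was not called (limma adjusted p = 0.0825). For SNHG6 the counts overlapped while TPM, which divides the count by length, lay lower in both knockout libraries. SNHG12 varied most within groups, with 1087 and 796 bases in BRD9 KO cells and 1024 and 719.8 bases in LacZ control cells.

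**Figure D4:**
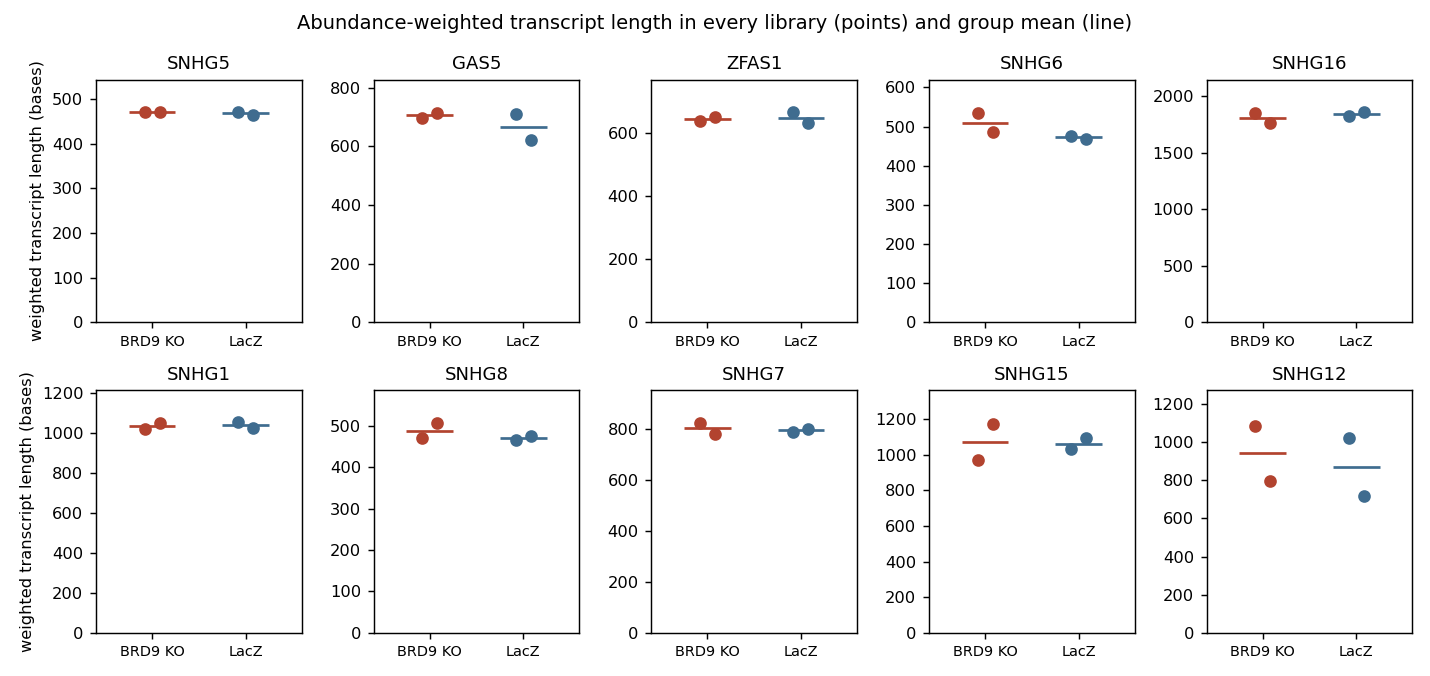
Abundance-weighted transcript length in bases (y axis, from 0) of each host gene in the BRD9 KO and LacZ control libraries (points), with the group mean as a line. SNHG6 is the host whose groups do not overlap, and SNHG12 has the widest spread within both groups.

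The annotation used (GENCODE 44 mapped to GRCh37) placed 6 snoRNA genes in the introns of 4 hosts. It is not complete for snoRNAs, so the others known to lie in these hosts were not analysed here. Those placed were SNORD99 in SNHG12, SNORD1B in SNHG16, SNORD78 in GAS5, and SNORD12C, SNORD12B and SNORD12 in ZFAS1. The C/D box snoRNAs long enough to be given reads are shown with box C (TGATGA within the first 20 bases) and box D (CTGA within the last 15 bases) in capitals, as these boxes bind the core proteins of the particle. Both boxes in these letters were found in 50.4% of 389 annotated SNORD genes. SNORD99 and SNORD78, not shown, held box D but not box C in these letters.
SNORD1B (GRCh37, chr17:74557191-74557274, plus strand): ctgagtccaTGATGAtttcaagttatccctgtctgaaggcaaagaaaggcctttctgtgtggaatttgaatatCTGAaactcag
SNORD12C (GRCh37, chr20:47895477-47895565, plus strand): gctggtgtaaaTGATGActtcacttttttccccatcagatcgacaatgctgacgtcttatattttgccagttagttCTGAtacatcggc
SNORD12B (GRCh37, chr20:47896856-47896946, plus strand): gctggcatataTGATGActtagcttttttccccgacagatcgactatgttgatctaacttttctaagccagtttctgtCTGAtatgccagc
SNORD12 (GRCh37, chr20:47897220-47897309, plus strand): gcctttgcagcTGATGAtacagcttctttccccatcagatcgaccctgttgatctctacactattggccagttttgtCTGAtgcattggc
None of the 6 snoRNA genes had more than 2 counts in any library. SNORD12C had 0 and 2 counts in BRD9 KO cells, against 1 and 2 in LacZ control cells, and SNORD1B had 0 and 0 in BRD9 KO cells, against 1 and 0 in LacZ control cells. SNORD99 and SNORD78, of 74 and 65 bases, were at 0, and RSEM gave models under 75 bases an effective length of 0, so they could receive no read. The libraries held next to no reads of these mature snoRNAs, so they give no measure of a difference in snoRNA level.

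Several hosts share a start region or exons with another gene, and the sources used here do not say that counting used strand, so reads in a shared stretch cannot be told apart. ZFAS1 starts 248 bases from ZNFX1, which encodes an RNA-binding zinc finger protein of antiviral defence on the opposite strand, and the models share 249 exon bases. ZNFX1 had 87.5 and 84.6 CPM in BRD9 KO cells, against 55.9 and 58.4 CPM in LacZ control cells, a log2 fold change of 0.59 ± 0.04 (SE; edgeR adjusted p = 5.42e-10), while that of ZFAS1 was -0.04. Their 95% confidence intervals, 0.51 to 0.68 for ZNFX1 and -0.13 to 0.05 for ZFAS1, did not overlap. SNHG1 starts 188 bases from SLC3A2, which encodes the heavy chain of several amino acid transporters, and SLC3A2 was higher in BRD9 KO cells with a log2 value of 0.18 (adjusted p = 0.00124 in edgeR), in the direction of its neighbour.

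GAS5 starts 800 bases from ZBTB37, a zinc finger gene with a lower level in BRD9 KO cells (log2 fold change -0.30 and adjusted p = 0.000912 in edgeR), while GAS5 itself was not called. RP11-666A8.8, with its start 83 bases from that of SNHG16, was near the limit of testing at 0.872 and 0.49 CPM in BRD9 KO cells and 0.995 and 0.66 CPM in LacZ control cells (edgeR adjusted p = 0.721). Overlapping exons were also shared by SNHG12 with TRNAU1AP (8 bases), SNHG7 with FAM69B (1480 bases) and SNHG6 with MCMDC2 (231 bases). None of these 3 partners was called (edgeR adjusted p = 0.694, 0.741 and 0.981 in that order). For SNHG7 the 1480 shared bases exceed its weighted length of 779 to 824 bases. How much of its level could come from reads of FAM69B was not tested. GAS5-AS1, which shares 43 bases with GAS5, had too few reads to be tested.

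Other noncoding snoRNA hosts had calls in both directions, near the shares of all genes. Of 16 listed, 8 were tested, 2 were higher and 1 lower, with a median log2 fold change of 0.09. These are 25% and 12.5%, beside 20.5% and 18.1% of all genes tested. EPB41L4A-AS1 stood at 0.30 (edgeR adjusted p = 0.00814) and SNHG14, a long imprinted host, at 0.08 (adjusted p = 0.0424), while SNHG3 fell by 0.15 (adjusted p = 0.00681). DESeq2 called 0 of these 8 in either direction, with 1 higher and 1 lower at an unadjusted p under 0.05. Over all genes it called 15.5% higher, and 1437 of 13806 lower. Protein-coding genes with an intronic snoRNA numbered 276 among the genes tested, of which 66 were higher and 59 lower (23.9% and 21.4%), near the 20.5% and 18.1% of all genes tested, with a median of 0.0029. The smallest p-values in the list were those of HSPA8, a heat shock cognate chaperone (0.69), URB1, a factor of large ribosomal subunit assembly (0.63), HSPA9, the mitochondrial chaperone (0.26), and TMEM167A (0.38).

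Protein-coding TOP mRNAs encode ribosomal proteins, translation factors and some other abundant proteins. Of 30 listed 3 were higher and 21 lower, with a median log2 fold change of -0.08, where 18.1% of all genes were lower. Most of these were small shifts, and over the alternative settings the number lower ran from 16 to 22. VIM, the intermediate filament protein vimentin, fell by 0.49, HNRNPA1 by 0.42, PABPC1, the cytoplasmic poly(A)-binding protein, by 0.42, and RPS2 by 0.20 on the log2 scale, each with an edgeR adjusted p of 5.31e-12 or smaller. HNRNPA1, PABPC1, RPS2 and HSPA8 have many processed copies in the genome, so the sharing of their reads is uncertain. Whether the other TOP mRNAs listed are affected in the same way was not tested. None of the 6 host RNAs with a TOP start was called lower, and the difference between both lists was not tested.

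Of 19 proteins that make and hold snoRNPs 8 were higher and 2 lower (42.1% and 10.5%), where 20.5% of all genes tested were higher and 18.1% lower, with a median of 0.11. The difference from other genes was not tested for this list or those that follow. DKC1, the pseudouridine synthase of H/ACA particles, stood at 0.44, NOP56 and NOP58, core proteins of C/D particles, at 0.44 and 0.34, and NOLC1, a nucleolar chaperone of both kinds, at 0.35 (edgeR adjusted p of 1.95e-06 or smaller for each). Regulators of TOP mRNAs had 7 higher and 2 lower of 14 (50% and 14.3%, beside the same 20.5% and 18.1%), with a median of 0.11. CNBP, which binds TOP starts, stood at 0.31, EIF4EBP2, a repressor of cap-dependent translation, at 0.23, and LARP1, the reader of capped TOP starts, at 0.23, while TIA1, a binder of TOP mRNAs under starvation, fell by 0.19.

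Nonsense-mediated decay acts on host RNAs, and the list held its factors and the decay enzymes after it. Of 19 listed 8 were higher and 4 lower (42.1% and 21.1%, beside 20.5% and 18.1% of all genes tested), with a median of 0.04. SMG5, which helps to dephosphorylate UPF1 and recruit decay enzymes, stood at 0.30, while the exonuclease XRN1 fell by 0.49, the decapping enzyme DCP2 by 0.33 and PNRC2, a decapping partner, by 0.27, all as log2 values (adjusted p of 2.01e-06 or smaller for each in edgeR). On the log2(TPM + 1) scale 2 were higher and 0 lower (6 and 2 at an unadjusted limma p under 0.05), where 8.77% of genes were higher, with a median of -0.01. RNA levels of these factors are not a measure of decay activity, and their part in the levels of the host RNAs was not tested.

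**Figure D5:**
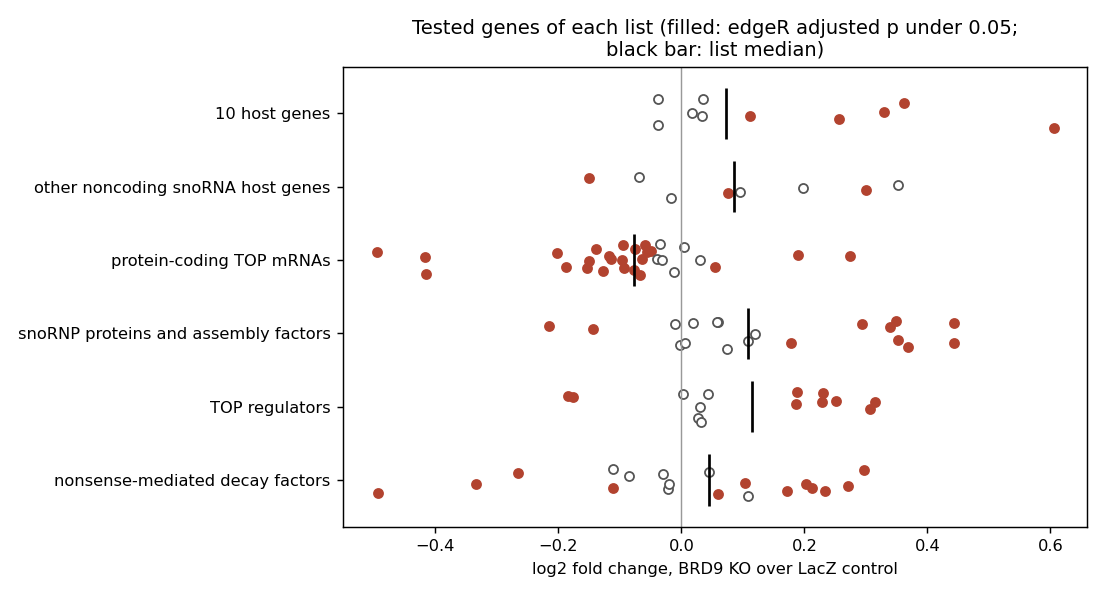
Log2 fold change, BRD9 KO over LacZ control (x axis), of each tested gene in 6 lists, filled where edgeR's adjusted p was under 0.05, with the median as a black bar. The host genes have a median of 0.07, the protein-coding TOP mRNAs lie mostly below 0 (median -0.08), and the snoRNP proteins and TOP regulators have a median of 0.11.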

How the data were processed

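RNA-seq of G401 cells was analysed in 4 libraries, 2 BRD9 KO and 2 LacZ control. Per the labels, the authors extracted total RNA and made libraries with the NEBNext Ultra kit. Reads were aligned to hg19 with STAR and quantified with RSEM by the authors, per the methods and the submitters' processing notes. The sources used here give neither versions nor annotation, and name DESeq2 for testing. The deposited tables hold an expected count per gene, RSEM's estimate from the authors' run, not normalized, and TPM, which the authors' RSEM run scaled by effective length and library, with posterior means, intervals and weighted lengths. Whether poly(A) RNA was selected is not stated.

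Expected counts were rounded and tested with edgeR 4.0.16 (TMM, filterByExpr, robust quasi-likelihood, two-sided) in R 4.3.3, with Benjamini-Hochberg adjustment over 15288 genes. Log2 length was tested with limma 3.58.1. Alternatives were RLE factors, library totals alone, DESeq2 1.42.0, limma on log2(TPM + 1) and log2(TPM + 0.1), no filter, at least 1 CPM in every library, posterior mean counts, a replicate block, each library left out, and an adjusted p under 0.01. Scripts were tested on simulated data. Replicates differed beyond counting noise (chi-square per degree of freedom 1.59 in BRD9 KO and 1.62 in LacZ control), and p-values measure the spread between these libraries. That spread was small, with a biological coefficient of variation (edgeR's relative spread beyond counting noise) of 0.0166. Small shifts could therefore pass the test.

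Positions came from transcripts shared with GENCODE 44 on GRCh37 (56106 of 57820 models). Neighbours were genes with an opposite-strand start within 1000 bases or with overlapping exons. Text names the 10 hosts, BRD9, tested neighbours and, of each list, at most 4 called genes ordered by p (with no call, the 2 of highest CPM). The members and lists were chosen with earlier results of these data known. Host names with no row by that symbol were not analysed here.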

Additional observations from a re-analysis of the deposited data

How the results depend on the processing

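The number of host RNAs called higher in BRD9 KO cells was 5 in the edgeR test, 3 under DESeq2, 2 under limma on log2(TPM + 1), 2 under limma on log2(TPM + 0.1), 3 at an adjusted p under 0.01, and 3 to 4 when each library was left out in turn (3 without LacZ control replicate 2). None was called lower under any of these settings. Over all genes, edgeR called 3127 higher and 2774 lower, limma 1341 and 1103 with a pseudocount of 1 and 1328 and 1089 with 0.1, and DESeq2 called 1437 lower. With a library left out, 2357 to 2694 genes were higher and 1838 to 2268 lower. Among hosts that were not called, the log2 fold change changed sign for SNHG5 (-0.038 without BRD9 KO replicate 2 and -0.029 without LacZ control replicate 2, and up to 0.086 with another library left out), SNHG6 (0.0011 and 0.00077 in the same settings, down to -0.078 with another library left out and -0.16 on either TPM scale), ZFAS1 (0.033 without BRD9 KO replicate 1, and down to -0.094 with another library left out) and GAS5 (-0.0488 on log2(TPM + 1) and -0.0489 on log2(TPM + 0.1)). The cause was not tested. With a replicate block, 5 hosts were higher, 0 lower, and BRD9 stood at -0.86. Same-numbered libraries did not deviate together (correlation -0.05), so the numbers were not taken to pair the samples. With 2 libraries a group and 121 to 249 reads, SNHG12 limits what depth can show.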

Other observations

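Long noncoding RNAs that host no snoRNA were read beside the hosts. MALAT1, an abundant nuclear RNA of splicing speckles, had 1441 and 1461 CPM in BRD9 KO cells, against 1672 and 1675 CPM in LacZ control cells, which is -0.21 on the log2 scale (adjusted p = 3.06e-12 in edgeR). It is the only 1 of the 3 listed that was called. NEAT1, the scaffold of paraspeckles, had 446 and 469 CPM in BRD9 KO cells, against 454 and 464 CPM in LacZ control cells (adjusted p = 0.884). TUG1 had 268 and 265 CPM in BRD9 KO cells, against 268 and 269.9 CPM in LacZ control cells (adjusted p = 0.682). Among the hosts outside the 10, SNHG17 had 28.1 and 24.0 CPM in BRD9 KO cells, against 23.1 and 22.6 CPM in LacZ control cells, and just missed the threshold (adjusted p = 0.0588). NEAT1, TUG1 and SNHG17 were named after their values were seen.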
